A study of Mus musculus with 9 samples.

Results

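A set of 7 microRNAs known as brain-enriched was followed in mouse serum: mmu-miR-9-5p, mmu-miR-9-3p, mmu-miR-124-3p, mmu-miR-128-3p, mmu-miR-129-5p, mmu-miR-138-5p and mmu-miR-219a-5p, written without the species prefix from here on. They were taken by name and are 7 of the 1169 mature microRNAs listed in the deposited tables. Small extracellular vesicles were precipitated from serum and their small RNA sequenced, in 3 groups of 3 libraries each, from male mice according to the title of the study. Mice of the HFD Sirt3 AKI group were fed a high fat diet and overexpressed Sirt3, a mitochondrial deacetylase, in adipose tissue only. The HFD WT group was labelled wild type and had the same diet, and the chow WT group was wild type on chow. The promoter or Cre line that restricts Sirt3 to adipose tissue, the ages, and any pooling of animals could not be taken from the labels. The names of the HFD WT libraries carry a Sirt3 knock-in code that the chow WT names lack, so a difference in mouse line cannot be told apart from the diet. A batch label sets HFD Sirt3 AKI replicates 2 and 3 apart from the other 7 libraries.

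A microRNA guides a silencing complex to messenger RNAs that match its seed, bases 2 to 8 of the mature strand. The 7 members are best known from the nervous system. miR-9 is made by neural progenitors and promotes neuronal differentiation, and miR-124 is abundant in neurons and represses transcripts of other cell types. miR-128 dampens neuronal excitability and is also found outside the brain, miR-129 and miR-138 act at synapses and dendritic spines, and miR-219a drives oligodendrocyte maturation. Vesicles in serum come from many tissues, and brain microRNAs are a small part of the mixture.

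The mature sequences are shown first because the 6 members with a sequence each have a seed of their own. They are from RefSeq on GRCm38.p6, in which 6 of the 7 members matched, with miR-124-3p as the exception, and capitals mark the seed.
miR-9-5p: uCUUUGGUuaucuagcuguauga
miR-9-3p: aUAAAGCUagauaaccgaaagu
miR-128-3p: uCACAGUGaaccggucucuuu
miR-129-5p: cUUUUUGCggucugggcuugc
miR-138-5p: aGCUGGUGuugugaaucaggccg
miR-219a-5p: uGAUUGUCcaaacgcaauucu
The 6 sequences hold 6 distinct seeds. No other mature mouse microRNA in that reference had the same bases 2 to 8 as one of them.

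Each of the 6 comes from more than 1 precursor, 11 in all, so that its count is a sum over loci. For miR-9 these are Mir9-1 at chr3:88215598-88215686, Mir9-2 at chr13:83738814-83738885 and Mir9-3 at chr7:79505264-79505353, all on the plus strand and within long noncoding RNA genes in GENCODE M21. The precursor Mir9-1 lies in an intron of Gm3764, and its hairpin is printed because both of its arms are members (in capitals, miR-9-5p and then miR-9-3p).
Mir9-1: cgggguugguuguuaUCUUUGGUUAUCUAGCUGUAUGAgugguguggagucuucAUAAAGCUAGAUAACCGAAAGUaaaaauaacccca
The precursors of miR-128-3p are intronic in protein-coding genes, Mir128-1 (chr1:128202361-128202430, plus strand) in R3hdm1 and Mir128-2 (chr9:112118636-112118711, minus strand) in Arpp21. Those of miR-219a-5p are Mir219a-1 (chr17:34024983-34025092) and Mir219a-2 (chr2:29845631-29845727), both on the minus strand.

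The libraries differed in depth, which limits the rarer members. HFD Sirt3 AKI libraries held 1729416 to 2973432 counts, HFD WT libraries 1953935 to 2162009, and chow WT libraries 225002 to 306974. Members ranged from a lowest count of 1 for miR-129-5p to a highest of 11779 for miR-128-3p, and no member was at 0 in any library. All 7 passed the filter on low counts and were among the 414 tested. Levels are given as normalised CPM, counts in 1000000 of the library total after TMM scaling (trimmed mean of M values). Changes are log2 fold changes from edgeR's quasi-likelihood test with their standard error (SE), called at an adjusted p below 0.05 over all 414. Whether the samples of a group came from separate animals is not stated, so the spread within a group may be technical. The p-values of this test rest on that spread, estimated over all libraries of the 3 groups together. Bulk counts from serum vesicles cannot tell fewer contributing cells or vesicles from less RNA in each.

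Among the members miR-128-3p was by far the most abundant, with rank 39, 39 and 50 of the 1064 known microRNAs in HFD Sirt3 AKI, HFD WT and chow WT. The next was miR-9-5p, with ranks 59, 123 and 102 in the same order. The 7 members together took 0.414%, 0.920% and 0.479% of counts in HFD Sirt3 AKI replicates 1 to 3, against 0.339%, 0.286% and 0.308% in HFD WT and 0.362%, 0.434% and 0.346% in chow WT. Their summed level was 6044 ± 2100 normalised CPM in HFD Sirt3 AKI, 3950 ± 158 in HFD WT and 2917 ± 367 in chow WT (SD, n = 3 each). Per 1000000 of plain library totals it was 6043, 3112 and 3807, so the order of HFD WT and chow WT depends on the scaling. Of the members' counts, miR-128-3p made up 95.8%, 49.8% and 78.6% in HFD Sirt3 AKI replicates 1 to 3, 89.5% to 93.2% in HFD WT and 70.3% to 81.1% in chow WT. The other 6 members summed to 186, 4222 and 1132 normalised CPM in HFD Sirt3 AKI, against 256 to 419 in HFD WT and 491 to 986 in chow WT. The lowest and the highest of the 9 libraries were thus both in HFD Sirt3 AKI.

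**Figure D1:**
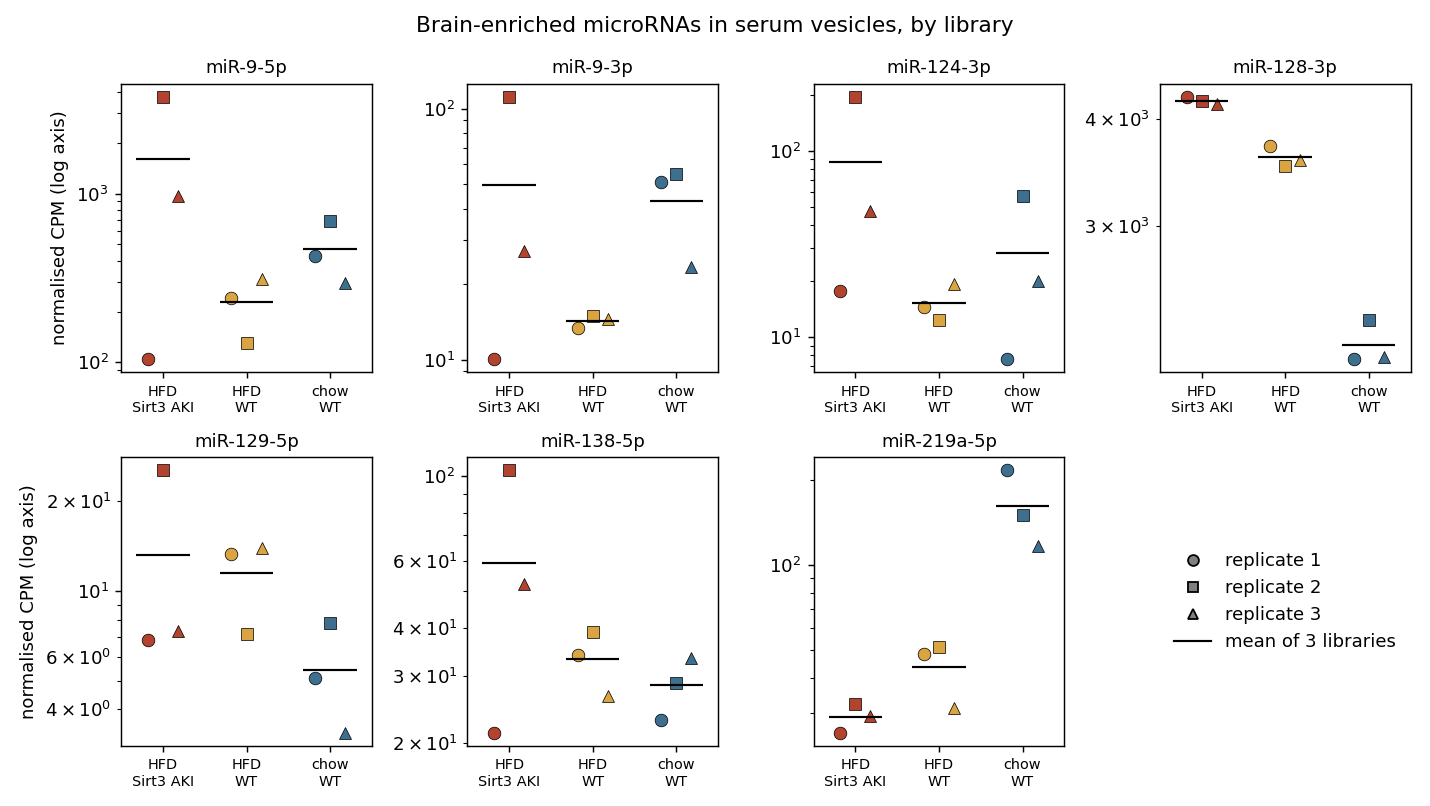
Normalised CPM of each member (log axis) in every library, by group, with the marker giving the replicate and the bar the mean of 3 libraries. HFD Sirt3 AKI replicate 2 is the highest point for miR-9-5p (3754), miR-9-3p, miR-124-3p, miR-129-5p and miR-138-5p, while the 3 libraries of each group lie close together for miR-128-3p.

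HFD WT was compared with chow WT, both labelled wild type. The diet cannot be told apart here from the knock-in code in the HFD WT names, and chow WT libraries were also much shallower. In serum vesicles of HFD WT mice the oligodendrocyte microRNA miR-219a-5p fell 3.71-fold below its chow WT level, and miR-128-3p rose relative to chow WT after TMM scaling. These were the only 2 of 7 members called, 1 in each direction, against 37.7% of all 414 tested microRNAs (21.5% higher and 16.2% lower). The neuronal members miR-9-5p, miR-9-3p, miR-124-3p, miR-129-5p and miR-138-5p did not pass the test. The median log2 fold change of the members was -0.90, beside 0.15 over all tested microRNAs.

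The level of miR-219a-5p was 48.4, 51.4 and 31.2 normalised CPM in HFD WT libraries, against 217, 151 and 117 in chow WT libraries. The lowest chow WT library stood above the highest HFD WT library, so the groups did not overlap. These values rest on 47 to 87 counts in HFD WT and 35 to 85 in the much shallower chow WT libraries. The log2 fold change was -1.89 (SE 0.29, edgeR adjusted p = 3.90e-04). It was called under all 18 alternatives, with log2 fold changes between -2.61 and -1.61.

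The level of miR-128-3p was 3717, 3519 and 3578 normalised CPM in HFD WT, against 2100, 2334 and 2111 in chow WT. The 3 libraries of each group lay close together and the groups did not overlap. The log2 fold change was 0.72 (SE 0.10, edgeR adjusted p = 2.09e-04), but -0.0048 with library totals and -0.0057 by limma on TPM. On the deposited TPM scale, which has no TMM factor, the groups overlapped, with 3092, 2664 and 2761 in HFD WT and 2684, 3053 and 2809 in chow WT. The median of all tested microRNAs moved with the scaling as well, to -0.57 with library totals.

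The 2 arms of miR-9 were lower in HFD WT by values that did not pass the test. The arm miR-9-3p, which like its partner acts in neuronal differentiation, had 13.3, 15.0 and 14.6 normalised CPM in HFD WT and 51.0, 54.8 and 23.4 in chow WT. These groups did not overlap either, so that 3 of 7 members were without overlap, against 54.8% of all tested microRNAs. Its change of -1.60 on the log2 scale (SE 0.76, edgeR adjusted p = 0.126) was called in 8 of 18 alternatives, among them DESeq2 (-1.70) and the larger batch alone (-1.55). The arm miR-9-5p had 239, 131 and 313 normalised CPM in HFD WT and 426, 686 and 294 in chow WT (log2 fold change -1.05, SE 0.89, edgeR adjusted p = 0.404). One HFD WT library stood above the lowest chow WT library, and the change was called in 3 of 18 alternatives. The test uses the spread of all 9 libraries, HFD Sirt3 AKI included. On log2(normalised CPM + 1) the SD of miR-9-5p was 2.60 in HFD Sirt3 AKI, 0.641 in HFD WT and 0.612 in chow WT. That of miR-9-3p was 1.68, 0.0817 and 0.662 in the same order.

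The remaining members were scarce in both groups. The neuronal miR-124-3p had 26, 19 and 29 counts in HFD WT and 3, 22 and 6 in chow WT, or 14.5, 12.4 and 19.2 normalised CPM against 7.65, 57.4 and 20.04. Its change of -0.90 on the log2 scale (SE 0.91, edgeR adjusted p = 0.492) turned to 0.23 without chow WT replicate 2, the library with 22 counts. The dendritic spine regulator miR-138-5p had 26.5 to 39.1 normalised CPM in HFD WT and 22.9 to 33.4 in chow WT (log2 fold change 0.24, SE 0.53, edgeR adjusted p = 0.770; -0.49 both with library totals and for limma on TPM). The synaptic miR-129-5p had 24, 11 and 21 counts in HFD WT but only 2, 3 and 1 in chow WT, whose 95% Poisson intervals reach 7.22, 8.77 and 5.57. Its log2 fold change was 1.04 (SE 0.76, edgeR adjusted p = 0.330).

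**Figure D2:**
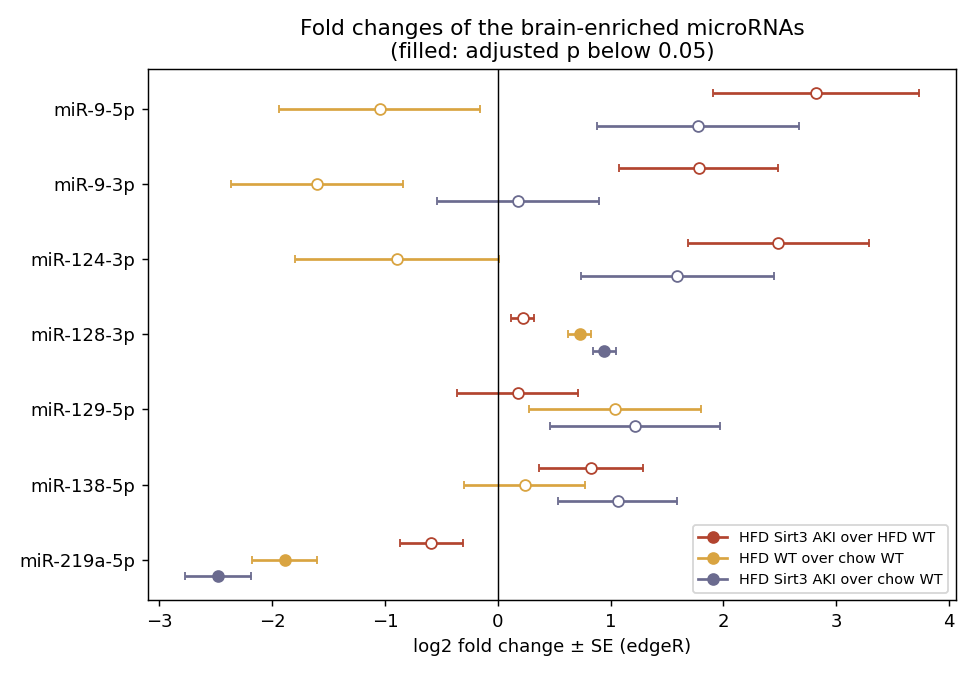
Log2 fold change with its SE for each member (rows) in the 3 comparisons, filled where edgeR's adjusted p was below 0.05. Only miR-219a-5p and miR-128-3p are filled, in the comparisons of HFD WT and of HFD Sirt3 AKI with chow WT, and the value of miR-128-3p in HFD WT over chow WT was -0.0048 with library totals.

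Adipose Sirt3 overexpression was compared with wild type under the high fat diet. The 2 arms of miR-9 and miR-124-3p had higher mean levels in HFD Sirt3 AKI than in HFD WT, with large spread, and no member passed the test. By edgeR 0 of 7 members were called, against 8.94% of all tested microRNAs (1.45% higher and 7.49% lower). At an unadjusted p below 0.05 there were 4 of 7, against 26.3% of all. DESeq2 called miR-9-5p, miR-9-3p and miR-124-3p higher, and limma on TPM called miR-128-3p alone. The members' median log2 fold change was 0.82, beside -0.021 over all tested.

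The level of miR-9-5p was 105, 3754 and 968 normalised CPM in HFD Sirt3 AKI replicates 1 to 3, against 239, 131 and 313 in HFD WT. Replicate 1 stood below all HFD WT libraries and replicates 2 and 3 above them. The log2 fold change of 2.82 (SE 0.91) had an edgeR adjusted p of 0.0754. It turned to -1.12 with the batch label as a term and to -0.98 in the larger batch alone. In both of these fits the contrast rests on replicate 1 alone of HFD Sirt3 AKI, since the other batch holds no other group, and replicate 1 is assumed to vary like the libraries of the other groups. Without replicate 1 it was called, at 3.38. That fit leaves only replicates 2 and 3, which carry the other batch label, so group and batch label cannot be told apart in it.

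Its partner miR-9-3p followed the same order with 10.1, 112 and 27.2 normalised CPM in HFD Sirt3 AKI, against 13.3 to 15.0 in HFD WT (log2 fold change 1.78, SE 0.70, edgeR adjusted p = 0.136). The neuronal miR-124-3p had 17.7, 195 and 47.6 normalised CPM against 12.4 to 19.2 (2.49, SE 0.80, edgeR adjusted p = 0.0754). For miR-138-5p the values were 21.3, 104 and 52.3 in HFD Sirt3 AKI and 26.5 to 39.1 in HFD WT (0.82, SE 0.46, edgeR adjusted p = 0.285). In each of these 3 the highest library was replicate 2, the next replicate 3 and the lowest replicate 1. With the batch label as a term their log2 fold changes were -0.50, 0.20 and -0.64, and in the larger batch alone -0.36, 0.34 and -0.50. Without replicate 1 all 3 were called, in a fit where HFD Sirt3 AKI and the other batch label are the same libraries.

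The other 3 members had smaller differences from HFD WT. The synaptic miR-129-5p stood above HFD WT in replicate 2 alone, at 6.84, 25.4 and 7.33 normalised CPM in HFD Sirt3 AKI against 7.16 to 13.9 in HFD WT (log2 fold change 0.18, SE 0.54, edgeR adjusted p = 0.854; -0.67 without replicate 2). The oligodendrocyte microRNA miR-219a-5p had 25.6, 32.3 and 29.3 normalised CPM against 48.4, 51.4 and 31.2 in HFD WT (-0.59, SE 0.28, edgeR adjusted p = 0.205), with an overlap of single libraries. The most abundant member, miR-128-3p, had 4242, 4190 and 4160 normalised CPM against 3717, 3519 and 3578 in HFD WT, a difference without overlap that did not pass the test (0.22, SE 0.10, edgeR adjusted p = 0.188). It was called with library totals (0.53) and by limma on TPM (0.53). It was the only member of 7 whose groups did not overlap here, against 26.1% of all tested microRNAs.

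The spread between the HFD Sirt3 AKI libraries differed widely among the members. On log2(normalised CPM + 1) the SD of miR-9-5p was 2.60, the largest of all 414 tested microRNAs, and miR-124-3p (1.71) and miR-9-3p (1.68) had the ranks 7 and 8. At the other end miR-128-3p had an SD of 0.0144 (rank 409) and miR-219a-5p one of 0.163 (rank 335). The median SD of the members was 1.12 in HFD Sirt3 AKI, 0.303 in HFD WT and 0.512 in chow WT, beside 0.346, 0.228 and 0.31 over all tested microRNAs.

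**Figure D3:**
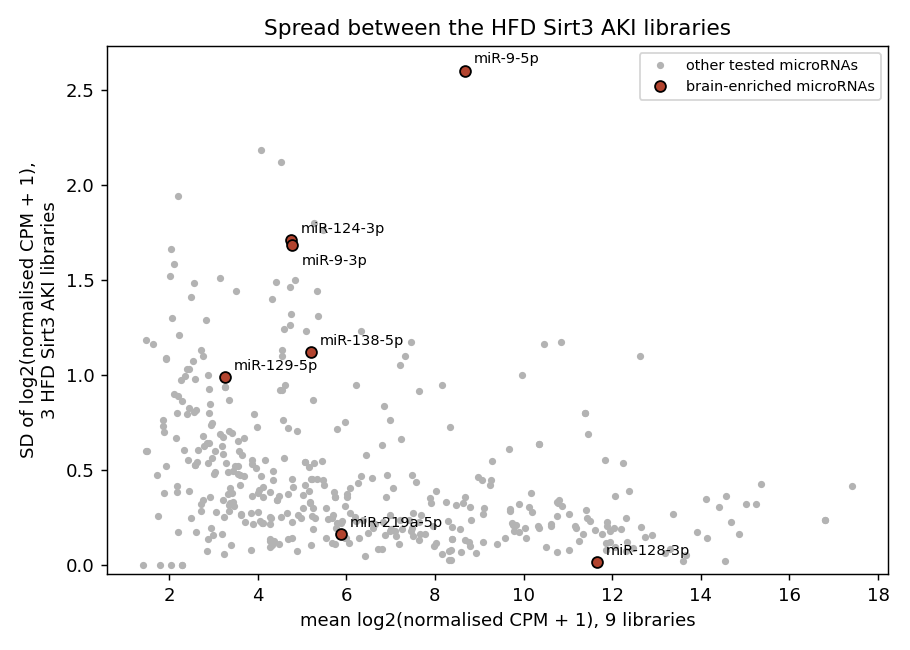
SD between the 3 HFD Sirt3 AKI libraries against the mean level over the 9 libraries, both on log2(normalised CPM + 1), for the 414 tested microRNAs (grey) and the 7 members (red). The point of miR-9-5p is the highest of all at 2.60, while miR-128-3p (0.0144) and miR-219a-5p (0.163) lie near the bottom.

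Replicate 2 of HFD Sirt3 AKI was the highest of the 9 libraries for 5 of the 7 members, against 21.3% of all tested microRNAs. Its level over the highest of the other 8 libraries, on normalised CPM + 1, was 3.87-fold for miR-9-5p and 3.36-fold for miR-124-3p, with ranks 3 and 5 of 414. It was 2.02-fold for miR-9-3p, 1.96-fold for miR-138-5p and 1.77-fold for miR-129-5p. Of the partner arms, some but not all were highest there. The arm miR-124-5p had 16 counts in replicate 2, against 0 in replicates 1 and 3, at most 2 in an HFD WT library and 0 in chow WT. The arm miR-129-1-3p had 12 counts there, against at most 2 in any other library, and miR-129-2-3p had 23, against at most 5. After scaling for depth miR-129-1-3p was little above chow WT, at 6.345 normalised CPM in replicate 2, against at most 5.216 in chow WT and 1.327 in HFD WT. For miR-129-2-3p these values were 12.16, 3.34 and 3.317. The arms miR-128-1-5p and miR-138-2-3p did not peak there, with at most 3.24 and 2.88 normalised CPM in HFD Sirt3 AKI and at most 3.26 each in HFD WT.

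Some other neural microRNAs were high in the same library. Of a list of 34, 18 were tested, and replicate 2 was the highest library for 8 of them (44.4%), against 21.3% of all tested microRNAs. The rest peaked in other libraries, among them the most abundant of the list, miR-7a-5p, miR-375-3p and miR-338-3p. At rank 1 of the 414 stood miR-132-5p, from a precursor induced by neuronal activity, with 48.6 normalised CPM in replicate 2 and at most 9.42 elsewhere (4.76-fold on the same scale). Its partner arm miR-132-3p had 117, 280 and 170 normalised CPM in HFD Sirt3 AKI, against 113 to 130 in HFD WT and 56.8 to 68.8 in chow WT. It rose in HFD WT (log2 fold change 0.91, edgeR adjusted p = 0.0386) and in HFD Sirt3 AKI (1.54, edgeR adjusted p = 0.00220) relative to chow WT. The microRNA miR-708-5p had rank 2 with 160 normalised CPM in replicate 2 and at most 35.1 elsewhere. Both miR-132-5p and miR-708-5p are named because of their rank, after their values were seen.

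The neural list as a whole was mixed. In HFD WT over chow WT 5 of its 18 tested members rose and 4 fell, against 21.5% higher and 16.2% lower over all tested microRNAs (median 0.077, beside 0.15). The increases were in miR-132-3p, miR-149-5p, miR-134-5p, miR-7a-5p and miR-375-3p, of which miR-7a and miR-375 are best known from endocrine cells. On mean TPM miR-7a-5p was at 404 in HFD WT and 431 in chow WT, so its direction depends on the scaling. On log2(mean TPM + 1) the differences of miR-132-3p, miR-149-5p and miR-375-3p were 0.18, 0.13 and 0.20, against 0.91, 0.84 and 0.94 after TMM scaling, so most of each increase goes with the scaling. The decreases were in miR-874-3p (-2.56), miR-344-3p (-3.06), miR-330-3p (-1.73) and the oligodendrocyte microRNA miR-338-3p (-0.73, edgeR adjusted p = 0.0309). In HFD Sirt3 AKI over HFD WT miR-375-3p rose (1.36, edgeR adjusted p = 0.00559) and miR-7a-5p fell (-1.28, edgeR adjusted p = 3.87e-04), and the other 16 did not pass (median 0.95, beside -0.021), against 1.45% higher and 7.49% lower over all tested. In those, all 3 HFD Sirt3 AKI libraries moved together, with 492, 389 and 524 normalised CPM of miR-375-3p against 230, 168 and 149 in HFD WT. In HFD Sirt3 AKI over chow WT 3 rose, miR-132-3p, miR-134-5p and miR-375-3p, and miR-7a-5p and miR-874-3p fell, against 20.3% higher and 19.6% lower over all tested.

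Some markers of other tissues were high in that library as well. The 4 hepatocyte microRNAs, all above 0 there, summed to 9295, 31800 and 15430 normalised CPM in HFD Sirt3 AKI replicates 1 to 3, against 7617 to 8024 in HFD WT and 11160 to 13960 in chow WT. The liver microRNA miR-122-5p alone had 5676, 25940 and 11210. The 7 skin and epithelial microRNAs summed to 7173, 15700 and 8964 normalised CPM, against 4301 to 5655 in HFD WT and 10880 to 12260 in chow WT. The 7 red cell microRNAs summed to 561400, 406100 and 581900, against 617500 to 711700 in HFD WT and 283400 to 306100 in chow WT. Among them miR-486a-5p and miR-486b-5p had identical levels, and both are in the sums. By these sums replicate 2 was the highest of the 9 libraries in hepatocyte and epithelial microRNAs. It was the lowest of the 6 high fat diet libraries in red cell microRNAs. Single microRNAs differed. In replicate 2 miR-122-5p, miR-122-3p, miR-194-5p, miR-203-3p, miR-205-5p and miR-141-3p were highest. The highest library of miR-192-5p, miR-200a-3p, miR-200b-3p, miR-200c-3p and miR-429-3p was in chow WT. For miR-429-3p it had 4783 normalised CPM, against at most 312 in HFD Sirt3 AKI. Leukocyte and platelet microRNAs summed to 28820 to 36630 normalised CPM in HFD Sirt3 AKI, 35990 to 38490 in HFD WT and 22460 to 22520 in chow WT, and striated muscle microRNAs to 8065 to 11960, 10330 to 11800 and 7081 to 8192. The part of these tissues, and of the batch label that replicates 2 and 3 share, in the levels of the members was not tested.

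**Figure D4:**
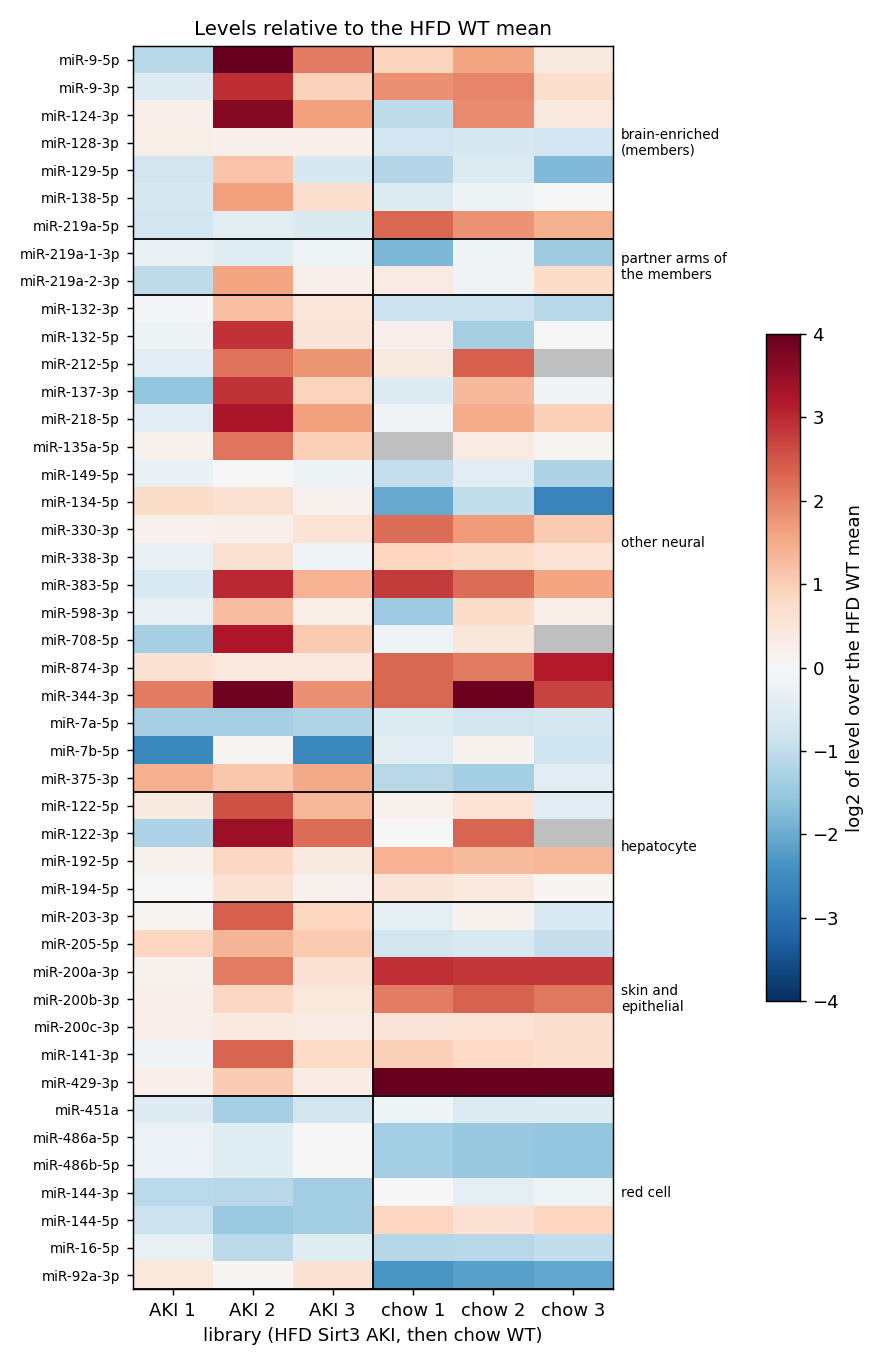
Log2 of the level in each HFD Sirt3 AKI library (left) and chow WT library (right) over the HFD WT mean, for tested microRNAs of 6 lists, with colours saturating at 4 on either side and grey for a count of 0. The column of HFD Sirt3 AKI replicate 2 is red for miR-9-5p, miR-9-3p, miR-124-3p, miR-138-5p, miR-218-5p, miR-137-3p, miR-122-5p and miR-203-3p, and pale for miR-128-3p and miR-219a-5p.

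The microRNAs whose pattern over the 9 libraries was most like that of miR-9-5p included other neural ones. Likeness was measured over the 9 libraries as the root mean square difference of centred log2(normalised CPM + 1). The nearest were miR-137-3p (0.533) and miR-218-5p (0.634), a synaptic and a motor neuron microRNA. Next came miR-122-3p of hepatocytes (0.821, on 0 to 9 counts in chow WT and HFD WT libraries). The epithelial miR-141-3p (0.834) and the sensory epithelial miR-96-5p (0.867) followed. The first 2 are printed to show that their seeds differ from that of miR-9-5p.
miR-137-3p: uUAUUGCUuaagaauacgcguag
miR-218-5p: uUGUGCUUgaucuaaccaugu
The level of miR-137-3p was 6.12, 133 and 33.5 normalised CPM in HFD Sirt3 AKI replicates 1 to 3, against 8.47 to 24.6 in HFD WT and 12.7 to 44.3 in chow WT. That of miR-218-5p was 16.9, 215 and 69.6, against 16.1 to 29.2 in HFD WT and 20.4 to 62.6 in chow WT. Within chow WT, replicate 2 was the highest library for miR-9-5p, miR-9-3p, miR-124-3p, miR-137-3p and miR-218-5p. There miR-137-3p had 17 counts and miR-218-5p 24. For miR-9-3p it hardly exceeded replicate 1, at 3.83 against 3.56 times the HFD WT mean. The members miR-219a-5p and miR-138-5p were highest in other chow WT libraries. How many of all tested microRNAs were highest in replicate 2 within chow WT was not counted.

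Outside the members, the pattern of miR-128-3p was closest to microRNAs that are not known as neural. These were miR-423-3p and miR-224-5p (both 0.107), miR-351-5p (0.112), miR-125a-5p (0.127) and miR-30d-5p (0.138). All 5 stood in each HFD WT and each HFD Sirt3 AKI library above every chow WT library after TMM scaling. So did miR-128-3p, and the 5 were picked for likeness to it over these same libraries, so this adds no separate result. Of all tested microRNAs, 54.8% were without overlap in HFD WT over chow WT and 49.3% in HFD Sirt3 AKI over chow WT, in either direction. After shifting by 1 base, the seed of miR-128-3p is found at bases 3 to 9 of miR-27a-3p and miR-27b-3p, regulators of fat cell formation, and is marked there in capitals.
miR-27a-3p: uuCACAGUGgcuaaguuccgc
miR-27b-3p: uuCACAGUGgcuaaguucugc
They had 6384 and 18477 counts over all libraries.

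HFD Sirt3 AKI and chow WT were compared as well, which combines the diet with the transgene and shares libraries with both other comparisons. Again miR-219a-5p fell and miR-128-3p rose relative to chow WT, 2 of 7 members, against 39.9% of all tested microRNAs (20.3% higher and 19.6% lower). They were also the 2 members whose groups did not overlap, against 49.3% of all. For miR-219a-5p the log2 fold change was -2.48 (SE 0.29, edgeR adjusted p = 5.73e-05), and for miR-128-3p it was 0.94 (SE 0.10, edgeR adjusted p = 2.92e-05). Both were called under all 18 alternatives, miR-128-3p with values between 0.52 and 1.19. The median of the members was 1.06, beside 0.058 over all tested.

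The direction of miR-9 in this comparison depended on the libraries used. The level of miR-9-5p was 105, 3754 and 968 normalised CPM in HFD Sirt3 AKI and 426, 686 and 294 in chow WT (log2 fold change 1.77, SE 0.89, edgeR adjusted p = 0.142). With the batch label as a term it turned to -2.17, and in the larger batch to -1.97, values that both rest on replicate 1 as the single HFD Sirt3 AKI library. For miR-9-3p the value was 0.17 (SE 0.72, edgeR adjusted p = 0.873), and -2.11 and -1.91 in the same fits. Thus replicate 1 stood below all chow WT libraries for both arms, and replicate 2 above them. The log2 fold changes of miR-124-3p, miR-129-5p and miR-138-5p were 1.59, 1.22 and 1.06, with edgeR adjusted p of 0.164, 0.226 and 0.136. Without replicate 1 miR-9-5p, miR-124-3p and miR-138-5p were called, again with HFD Sirt3 AKI and the other batch label being the same libraries.

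Ratios of counts within a library do not depend on the scaling. For the arms of miR-9 the ratio of miR-9-5p to miR-9-3p was 10.4, 33.6 and 35.6 in HFD Sirt3 AKI, 17.9, 8.74 and 21.5 in HFD WT, and 8.35, 12.5 and 12.6 in chow WT. Replicates 2 and 3 of HFD Sirt3 AKI, which carry the other batch label, stood above all other libraries, and replicate 1 lay within the range of the other groups. The chow WT ratios rest on 48 counts of miR-9-3p over the 3 libraries together. The ratio of miR-9-5p to miR-128-3p spanned the widest range, with 0.0247, 0.896 and 0.233 in HFD Sirt3 AKI, 0.0643, 0.0372 and 0.0875 in HFD WT, and 0.203, 0.294 and 0.139 in chow WT. Here HFD WT stood below chow WT without overlap, and HFD Sirt3 AKI held both the lowest and the highest library.

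The arms of miR-219a went apart. The partner arm miR-219a-2-3p had 10.1, 60.8 and 23.6 normalised CPM in HFD Sirt3 AKI, 20.6, 15.0 and 25.2 in HFD WT, and 25.5, 18.3 and 33.4 in chow WT. Unlike miR-219a-5p, it passed no test (edgeR adjusted p = 0.725 in HFD WT over chow WT). The ratio of miR-219a-5p to miR-219a-2-3p was 2.54, 0.53 and 1.24 in HFD Sirt3 AKI, 2.35, 3.43 and 1.24 in HFD WT, and 8.50, 8.29 and 3.50 in chow WT. Every high fat diet library stood below every chow WT library, on 7 to 10 counts of miR-219a-2-3p in chow WT. The count of miR-219a-5p is a sum over Mir219a-1 and Mir219a-2, so this is not the ratio of the arms of a single hairpin. The ratio of miR-219a-5p to miR-128-3p was 0.00603 to 0.00770 in HFD Sirt3 AKI, 0.00871 to 0.0146 in HFD WT and 0.0554 to 0.103 in chow WT, with no overlap between any of the groups. Of the other partner arms, miR-219a-1-3p had 47 counts in HFD Sirt3 AKI, 43 in HFD WT and 5 in the shallower chow WT, and also passed no test. Its mean level was 7.13, 8.87 and 4.57 normalised CPM in the same order. The remaining 13 listed partner and antisense arms had between 1 and 42 counts over all libraries and were not tested.

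**Figure D5:**
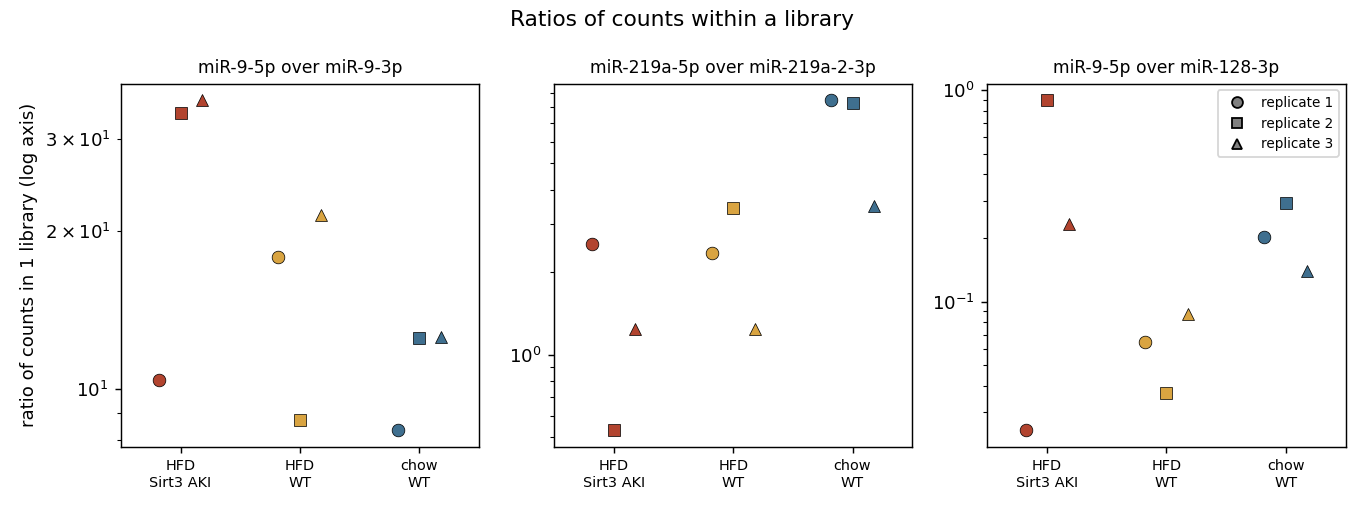
Ratios of counts within each library (log axis) for the arms of miR-9, the arms of miR-219a, and miR-9-5p over miR-128-3p, by group, with the marker giving the replicate. The miR-219a ratio is 3.50 or more in chow WT and 3.43 or less in both high fat diet groups, and the ratio of miR-9-5p to miR-128-3p runs from 0.0247 to 0.896 within HFD Sirt3 AKI.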

How the data were processed

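The deposited count table gives, for each mature microRNA, the whole-number count of reads that the authors assigned, for 1064 known and 105 predicted microRNAs in 9 libraries. The deposited TPM values are those counts per 1000000 of each library total, with no length term. Per the submitters' processing notes, Bowtie 0.12.2 and the build mm8 were involved, in a role not stated. Trimming, microRNA reference and counting program: not given in the sources used here. Precursor coordinates are RefSeq's on GRCm38.p6.

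After filterByExpr (minimum count 10) and TMM scaling, edgeR 4.0.16 in R 4.3.3 fitted the quasi-likelihood model of the 3 groups to all 9 libraries together. SE is the size of the log2 fold change over the root of the F statistic. P-values were adjusted by Benjamini-Hochberg over the 414 tested. Poisson intervals (95%) and floors cover counting error only. Alternatives were DESeq2 1.42.0, its size factors, library totals, no filter, limma 3.58.1 on log2(TPM + 1), only 2 groups, batch terms, a replicate block and single libraries left out. The fit was tested on simulated counts.

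The members, lists and tests were chosen with earlier results of these data known. The text names all members, some of the partner arms with counts, the 6 most abundant and all called microRNAs of the neural list. It also names the most like microRNAs outside the members, and tissue markers.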

Additional observations from a re-analysis of the deposited data

How the results depend on the processing

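No call of a member was lost under any of the 18 alternatives except that of miR-128-3p in HFD WT over chow WT, which turned to -0.0048 with library totals and -0.0057 by limma on TPM. Members called in HFD WT over chow WT numbered 1 with library totals and 4 without a filter, with only the 2 groups or in the larger batch, against 2, and 2 to 3 without single libraries. In HFD Sirt3 AKI over HFD WT they numbered 3 with DESeq2, 3 without a filter, 1 with library totals and 1 by limma on TPM, against 0, and 0 to 4 without single libraries. In HFD Sirt3 AKI over chow WT they numbered 5 without a filter and 4 with the batch term or in the larger batch, against 2, and 2 to 5 without single libraries. The highest counts came without HFD Sirt3 AKI replicate 1 in both, where that group cannot be told apart from the other batch label. For the counts that moved without a filter or with DESeq2 the cause was not tested.

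Signs turned as follows, uncalled except for the arms of miR-9 in HFD Sirt3 AKI over chow WT with the batch term and in the larger batch. Both of those fits rest on replicate 1 as the only HFD Sirt3 AKI library, which is assumed to vary like the other groups. With library totals and limma on TPM, miR-138-5p in HFD WT over chow WT was -0.49 and -0.49, and miR-9-3p in HFD Sirt3 AKI over chow WT -0.14 and -0.74. With the batch term, HFD Sirt3 AKI over HFD WT gave -1.12 for miR-9-5p, -0.50 for miR-9-3p, -0.74 for miR-129-5p and -0.64 for miR-138-5p, and HFD Sirt3 AKI over chow WT gave -2.17, -2.11 for the arms of miR-9, -0.70 for miR-124-3p and -0.40 for miR-138-5p. In the larger batch the same values were -0.98, -0.36, -0.61 and -0.50, and -1.97, -1.91, -0.49 and -0.20. Without single libraries, miR-124-3p in HFD WT over chow WT ranged from -1.36 to 0.23, miR-129-5p in HFD Sirt3 AKI over HFD WT from -0.67 to 0.51, and miR-9-3p in HFD Sirt3 AKI over chow WT from -1.12 to 0.67.

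The replicate block called 2, 0 and 2 members in the 3 comparisons, as without it, and turned miR-129-5p in HFD Sirt3 AKI over HFD WT to -0.045 and miR-9-3p in HFD Sirt3 AKI over chow WT to -0.20. Same-numbered libraries shared only a number, with correlations of their deviations from the group means between -0.074 and 0.181, and 2 of 9 pairs over 0.1. The summed level of the members was 3112 in HFD WT and 3807 in chow WT with library totals, and without single libraries 5033 to 6953 in HFD Sirt3 AKI, 3801 to 4177 in HFD WT and 2594 to 3001 in chow WT.

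Over all tested microRNAs, HFD Sirt3 AKI over HFD WT called 37, against 65 with DESeq2 (38 higher), 24 with its size factors, 3 with only the 2 groups, 1 with the batch term, 23 in the larger batch, and 13 to 102 without single libraries. Library totals turned the split of 6 higher and 31 lower to 36 and 11. Depth limits the rarer members in chow WT libraries, where miR-129-5p had 1 to 3 counts, miR-124-3p 3 to 22 and miR-138-5p 9 to 11.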
